A study of Mus musculus with 16 samples.

Results

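The NF-κB genes studied here are the 5 that encode the Rel family subunits (Nfkb1, Nfkb2, Rel, Rela and Relb) and 5 that encode proteins acting on them (Nfkbia, Nfkbie, Nfkbiz, Bcl3 and Tnfaip3). Their chromatin was described by peaks of H3K27ac, an acetylated histone mark of active promoters and enhancers, measured by ChIP-seq in bone marrow-derived macrophages (BMDMs). A peak was taken as belonging to a gene when it lay within 50 kb of any annotated start site of that gene on mm10. By this rule 106 of 43533 peaks in untreated cells (Control), 99 of 40708 after IFNγ, 143 of 44090 after PJ34 and 82 of 42960 after IFNγ+PJ34 lay near the 10 genes. Merging peaks that shared at least 1 bp across the 4 lists gave 134 regions near these genes out of 55218 in all.

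The cells came from the bone marrow of C57Bl6 mice aged 8 to 12 weeks and were left untreated, treated with IFNγ at 100 ng/mL for 1 h, treated with PJ34 at 20 µM, or given PJ34 1 h before IFNγ. IFNγ is a macrophage-activating cytokine, and PJ34 is an inhibitor of the poly(ADP-ribose) polymerases, among them PARP-1. All groups were cultured in DMEM with fetal bovine serum and the conditioned medium LCCM, and the labels name no engineered allele. Each condition had 2 ChIP and 2 input samples, 16 samples in all, and the labels do not say whether the 2 replicates came from separate mice. The authors kept a peak only where it was found in both replicates, so each condition is represented by 1 list and the spread between replicates cannot be recovered. No difference below therefore has a test, and intervals on shares are exact Clopper-Pearson 95% intervals that cover counting error only and treat neighbouring peaks as independent.

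NF-κB factors are dimers of Rel family proteins. In resting macrophages most of them are held in the cytoplasm by IκB proteins, chiefly IκBα, the product of Nfkbia, and IκBε, the product of Nfkbie. Signals from Toll-like and TNF receptors activate the IKK kinases, which mark the IκB proteins for destruction and so free the dimers to enter the nucleus and bind κB elements. Nfkb1 and Nfkb2 encode the precursors p105 and p100, which are themselves IκB-like until cut to p50 and p52, whereas Rela, Rel and Relb encode the subunits with a transactivation domain. IκBζ (Nfkbiz) and Bcl-3 (Bcl3) are atypical nuclear IκB proteins that bind p50 or p52 at target promoters. A20, the product of Tnfaip3, edits ubiquitin chains upstream of IKK and dampens the signal. Several of these genes are known NF-κB targets, so that the pathway writes its own brakes.

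κB matches within the H3K27ac regions are shown first, because they place a known regulatory letter pattern of this pathway on the peaks described below. The search used the κB consensus in its general form on both strands, sequences are from the RefSeq genome GRCm38.p6 on the strand of the gene (minus for every site shown), and capitals mark the match. Positions are counted from the nearest start site of the named gene, negative upstream. A match is a description of letters and not evidence of binding. The first 3 lay under peaks of all 4 lists, at or next to promoters.
Rel -86, chr11:23771027-23771086: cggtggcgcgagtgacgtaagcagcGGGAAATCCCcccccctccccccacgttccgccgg
Relb -92, chr7:19629501-19629560: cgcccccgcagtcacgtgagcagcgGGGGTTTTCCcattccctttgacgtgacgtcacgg
Nfkbia -268, chr12:55492886-55492945: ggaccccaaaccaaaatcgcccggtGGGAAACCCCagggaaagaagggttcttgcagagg

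The next 3 were chosen because they lay under peaks in Control, IFNγ and PJ34 cells but under no peak in IFNγ+PJ34 cells. Of all 96 matches in the regions, 28 lay under no IFNγ+PJ34 peak, whatever the other lists held. The Nfkb1 site is in an intron of the gene, and the other sites are intergenic.
Nfkb1 -2975, chr3:135670745-135670804: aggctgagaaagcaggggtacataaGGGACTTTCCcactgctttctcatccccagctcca
Nfkbia 24020, chr12:55468598-55468657: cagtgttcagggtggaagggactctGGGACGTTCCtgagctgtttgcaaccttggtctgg
Tnfaip3 -30985, chr10:19046366-19046425: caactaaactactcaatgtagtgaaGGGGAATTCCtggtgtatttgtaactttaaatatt

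The last 4 are among 10 of the 96 matches that lay under a peak in the PJ34 list alone. The Relb site is within an intron of the neighbouring gene Clptm1 and the others are intergenic.
Nfkbiz 45583, chr16:55776526-55776585: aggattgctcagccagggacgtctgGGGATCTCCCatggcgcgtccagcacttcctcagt
Bcl3 -20449, chr7:19843190-19843249: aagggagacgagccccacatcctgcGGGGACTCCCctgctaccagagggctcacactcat
Relb -5694, chr7:19635103-19635162: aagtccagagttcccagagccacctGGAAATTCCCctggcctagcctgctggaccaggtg
Tnfaip3 -34568, chr10:19049949-19050008: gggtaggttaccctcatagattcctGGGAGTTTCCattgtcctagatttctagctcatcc

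The 4 lists carry no read counts, so the depth is unknown. Peaks were compared by score percentile, the share of peaks in the same list with a lower score (ties averaged, 100 the highest), and by fold enrichment, the authors' ratio of ChIP signal to local background. Fold enrichment can move with depth and background, and the percentile is a rank within a list, so neither is an absolute amount of acetylation. From the most frequent pairs of fold enrichment and p-value, the background under the peaks was inferred as 4.53 scaled reads for Control, 3.96 for IFNγ, 4.97 for PJ34 and 2.83 for IFNγ+PJ34. Divided by the scaling factor inferred for each list, the values were 6.01, 5.68, 6.90 and 5.42, in the same order of lists and closer together. This order, PJ34 highest and IFNγ+PJ34 lowest, is also the order of the peak numbers near the 10 genes. The total list sizes do not follow it, and the part of depth in the results for these genes was not tested. All 10 of 10 macrophage marker genes had a promoter peak in every list, against 0 of 5 T cell, 1 of 4 B cell (Ms4a1), 1 of 4 dendritic cell (Zbtb46), 0 of 3 fibroblast and 0 of 2 epithelial markers, and of 4 neutrophil markers S100a8 had one in the IFNγ and PJ34 lists.

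All 10 genes had a peak within 1 kb of a start site in all 4 lists. The highest-scoring of these in each list was taken as the promoter peak of the gene, and most were among the highest of the list. They ranked at or above the 95th percentile for 9 of 10 genes in Control, 9 after IFNγ, 10 after PJ34 and 8 after IFNγ+PJ34. Among all protein-coding genes with a promoter peak the shares were 20.1%, 18.9%, 20.9% and 16%. The median fold enrichment of the 10 promoter peaks was 63.0 in Control, 59.9 after IFNγ, 72.2 after PJ34 and 45.2 after IFNγ+PJ34. The medians over all genes were 25.9, 19.3, 23.7 and 18.4. The median width was 4587 bp in Control and 3192 bp in IFNγ+PJ34 cells, where the median of all promoter peaks was 1701 and 1355 bp.

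**Figure D1:**
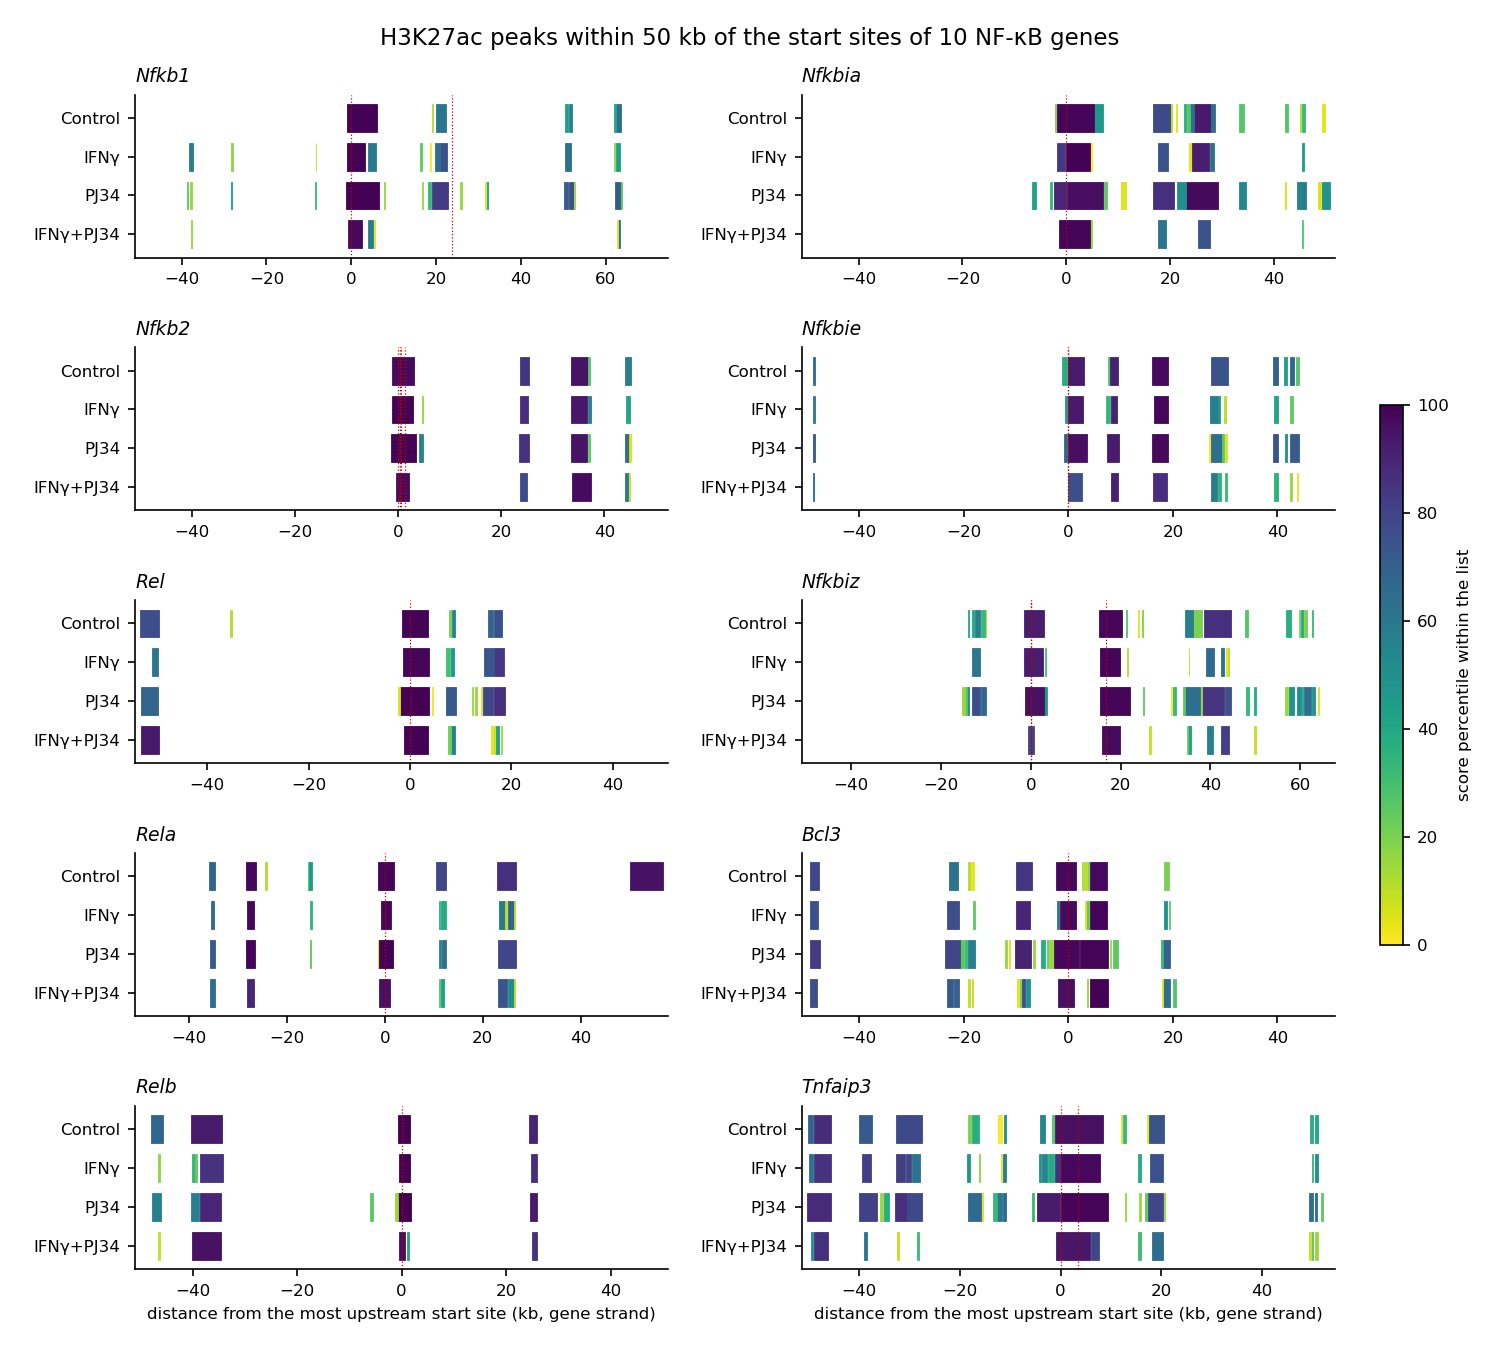
H3K27ac peaks within 50 kb of the start sites of each gene. The x axis gives distance from the most upstream start site in kb along the gene strand, each row is 1 of the 4 peak lists, the color is the score percentile within the list (0 to 100), and red dotted lines are annotated start sites. Dark promoter peaks are present in every list, and the PJ34 rows hold many additional short, low-ranked peaks beside them.

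Of the subunit genes, Nfkb1 (chr3:135584655-135691547, minus strand, 2 start sites) encodes p105 and p50. Its promoter peak had a fold enrichment of 95.4 in Control, 63.9 after IFNγ, 81.2 after PJ34 and 48.1 after IFNγ+PJ34. Its width was 7084, 4247, 7669 and 3177 bp in the same order, so the peak was narrower in both lists with IFNγ. There a separate peak lay inside the stretch of the Control peak, at 4.0 to 5.7 kb in IFNγ and 3.9 to 5.1 kb in IFNγ+PJ34. Its percentile was 99.6, 99.6, 99.7 and 97.4, near the top of each list. Within the gene, the region at chr3:135668679-135672589, just upstream of the internal start site, ranked at the 60.6th percentile in Control, 75.4 in IFNγ and 82.9 in PJ34 cells and had no peak in IFNγ+PJ34 cells. This region holds the Nfkb1 κB match printed above. An intronic region 26.3 kb from a start site (chr3:135639250-135641472) likewise ranked at 55.9, 62.9 and 76.0 and was absent from IFNγ+PJ34. Nfkb1 was the gene with the most peaks found in IFNγ cells and not in Control, 5 of 12, where 16.8% of all IFNγ peaks were absent from Control. The highest of these, 37.3 kb upstream (chr3:135728881-135729745), ranked at 57.4 after IFNγ, 15.3 after PJ34 and 15.6 after IFNγ+PJ34. In all, Nfkb1 had 7 peaks in Control, 12 after IFNγ, 17 after PJ34 and 6 after IFNγ+PJ34.

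Nfkb2 (chr19:46304320-46312385, plus strand, 4 start sites) encodes p100 and p52, the arm of the pathway that pairs with RelB. Its promoter peak had a fold enrichment of 52.9 in Control, 58.3 after IFNγ, 83.1 after PJ34 and 44.6 after IFNγ+PJ34. Its percentiles were 97.4, 99.5, 99.2 and 97.1, so it ranked higher in either single treatment than in Control or the combination. A short exonic region 2.7 kb into the gene (chr19:46308402-46309239) was found in IFNγ at the 17.0th percentile and in PJ34 at the 54.8th, and in neither of the other lists. Nfkb2 had 5 to 7 peaks in each list, and 4 of its 5 regions were found in all 4 lists.

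Rel (chr11:23736847-23770970, minus strand) encodes c-Rel, the subunit restricted largely to blood cells. Its promoter fold enrichment was 69.8 in Control, 64.0 after IFNγ, 86.8 after PJ34 and 58.8 after IFNγ+PJ34, and it was the only promoter of the 10 genes to rank higher in IFNγ+PJ34 (99.4) than in IFNγ (98.7). A pair of adjoining intronic regions ranked lowest in the combination. The region 16.6 kb into the gene (chr11:23752212-23754404) ranked at 75.1 in Control, 84.4 after IFNγ, 86.4 after PJ34 and 43.6 after IFNγ+PJ34, with fold enrichments of 15.2, 17.8, 18.7 and 4.86. The neighbouring region at 14.4 kb (chr11:23754463-23756601) ranked at 68.6, 73.3, 78.8 and 3.47. In contrast, an intergenic region 49.5 kb upstream (chr11:23820426-23824255) was highest in the combination, at 93.7, against 76.6 in Control, 61.3 in IFNγ and 68.0 in PJ34 cells.

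Rela (chr19:5637483-5648130, plus strand) encodes p65, the main transactivating subunit in macrophages. Its promoter fold enrichment was 72.9 in Control, 50.6 after IFNγ, 90.5 after PJ34 and 32.9 after IFNγ+PJ34, with percentiles of 98.7, 98.7, 99.6 and 95.7. A region at the far end of the gene, 10.5 kb downstream of the start site (chr19:5648013-5650042) was highest in Control, at the 78.9th percentile, against 38.4 after IFNγ, 63.8 after PJ34 and 43.6 after IFNγ+PJ34. Rela had no PJ34 peak without a Control counterpart. Its 20.3 kb of covered length in Control includes a broad peak that reaches past the 50 kb limit, and 13.5 kb lies within it.

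Relb (chr7:19606217-19629438, minus strand) encodes RelB, the partner of p52. Its promoter peak had the highest fold enrichment and score percentile of the 10 genes in PJ34 cells. The fold enrichment was 75.4 in Control, 61.6 after IFNγ, 134 after PJ34 and 45.8 after IFNγ+PJ34, with percentiles of 99.8, 99.95, 99.998 and 96.8. The peak was 2305, 2184, 2380 and 1037 bp wide. In the combination a separate peak lay 1.0 to 1.4 kb into the gene, within the stretch of the promoter peak in the other lists. The width there is thus that of the highest part alone. By fold enrichment and percentile, the combination had the lowest Relb promoter peak and PJ34 alone the highest.

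Nfkbia (chr12:55489410-55492647, minus strand) encodes IκBα, the inhibitor first degraded and first remade after NF-κB activation. Its highest promoter peak had a fold enrichment of 66.1 in Control, 71.0 after IFNγ, 39.5 after PJ34 and 54.9 after IFNγ+PJ34. The percentiles were 98.6, 99.3, 96.4 and 98.7, and it was the only one of the 10 promoters to rank lowest in PJ34 cells. In the IFNγ and PJ34 lists the caller divided this promoter into more than 1 peak, so the width there is that of the highest peak alone. Downstream of the gene lies a pair of intergenic regions. That at 23.2 kb (chr12:55463387-55469483) ranked at 93.1 in Control, 91.8 after IFNγ, 97.4 after PJ34 and 74.5 after IFNγ+PJ34, and that at 16.7 kb (chr12:55471834-55475967) at 77.8, 74.4, 86.3 and 61.6. The κB match 24020 bases downstream, printed above, lay under the stretch of that first region that ranked at 62.7 in Control, 4.55 in IFNγ and 97.4 in PJ34 cells. Nfkbia had 16 peaks in Control, 8 after IFNγ, 16 after PJ34 and 5 after IFNγ+PJ34, and 9 of the 16 Control peaks had no IFNγ counterpart (31.7% of all Control peaks had none).

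Nfkbie (chr17:45555703-45563169, plus strand, 2 start sites) encodes IκBε, which restrains c-Rel and p65 dimers later in the response. By the highest promoter peak of each gene, its promoter had the lowest percentile of the 10 in every list and the widest range of percentiles. It ranked at the 92.8th percentile in Control, 93.5 after IFNγ, 96.3 after PJ34 and 76.1 after IFNγ+PJ34, with fold enrichments of 37.2, 25.7, 45.0 and 14.0. Only in the combination did it rank under the median of all promoter peaks, which was 82.0. The adjoining region at chr17:45554562-45555528 ranked at 36.8 in Control, 46.7 in IFNγ and 68.0 in PJ34 cells and was absent from IFNγ+PJ34. An intergenic region 26.995 kb downstream (chr17:45582706-45586285) was highest in Control, at 74.5, against 57.4, 63.8 and 58.4 in IFNγ, PJ34 and IFNγ+PJ34 cells.

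Nfkbiz (chr16:55811375-55838899, minus strand, 3 start sites) encodes IκBζ, a nuclear cofactor for secondary inflammatory genes. Its highest promoter peak lay at the internal start site, 16.8 kb into the gene. This peak had a fold enrichment of 59.1 in Control, 66.4 after IFNγ, 48.5 after PJ34 and 48.2 after IFNγ+PJ34. Its percentiles were 98.3, 98.7, 98.6 and 97.1. The peak at the upstream start sites ranked lower, at 91.9, 92.2, 95.7 and 79.4 in the same order. Peak numbers were more spread than for any other of the genes, at 19, 10, 25 and 8, with 26.4 kb covered in Control, 14.0 kb after IFNγ, 33.7 kb after PJ34 and 10.4 kb after IFNγ+PJ34. A total of 12 of the 19 Control peaks had no IFNγ counterpart, where 31.7% of all Control peaks had none. A region 17.2 kb downstream of a start site (chr16:55800682-55804900) ranked at 57.0 in Control, 10.4 after IFNγ, 63.8 after PJ34 and 43.6 after IFNγ+PJ34. A short intronic region at 3.0 kb (chr16:55835267-55835830) was found in IFNγ (29.9) and PJ34 (46.0) only. Another, 11.2 kb upstream within Nxpe3 (chr16:55850084-55852075), ranked at 57.0 in Control, 60.3 in IFNγ and 76.3 in PJ34 cells and was absent from IFNγ+PJ34.

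Bcl3 (chr7:19808462-19822770, minus strand) encodes Bcl-3, which can repress or activate with p50 and p52 homodimers. Its promoter peak ranked at 97.7 in Control, 97.4 after IFNγ, 98.3 after PJ34 and 96.2 after IFNγ+PJ34. The fold enrichments were 59.8, 43.4, 42.2 and 38.9. An intergenic region 18.1 kb downstream (chr7:19803263-19804655) was low only in Control, at the 19.9th percentile, against 48.7 after IFNγ, 69.2 after PJ34 and 63.6 after IFNγ+PJ34. A region 17.9 kb upstream (chr7:19840691-19841995) was high only in PJ34, at 57.6, against 11.5, 24.3 and 8.96 in Control, IFNγ and IFNγ+PJ34 cells. Of 19 Bcl3 peaks in PJ34 cells, 12 had no Control counterpart, more than for any other of the 10 genes (19.5% of all PJ34 peaks had none).

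Tnfaip3 (chr10:19000910-19015657, minus strand, 2 start sites) encodes A20. It had the longest covered length of the 10 genes in every list, 31.8 kb in Control, 28.1 kb after IFNγ, 40.8 kb after PJ34 and 17.4 kb after IFNγ+PJ34. Its promoter peak was also the widest, at 9596, 7963, 9270 and 6856 bp. The promoter percentile was 95.8 in Control, 97.8 after IFNγ, 99.0 after PJ34 and 93.8 after IFNγ+PJ34, with fold enrichments of 41.9, 45.0, 63.3 and 28.4. An upstream intergenic region at 27.5 kb (chr10:19042879-19048217), which holds the Tnfaip3 κB match at -30985, ranked at 78.1, 81.6 and 86.2 in the first 3 lists and at 31.8 in IFNγ+PJ34, where the remaining peaks did not reach the match. Another at 45.6 kb upstream (chr10:19060968-19065812) ranked between 85.9 and 88.1 in all 4 lists. A further region, 15.9 kb upstream (chr10:19031294-19033961), ranked at 36.8, 46.7 and 65.3 and was absent from IFNγ+PJ34.

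**Figure D2:**
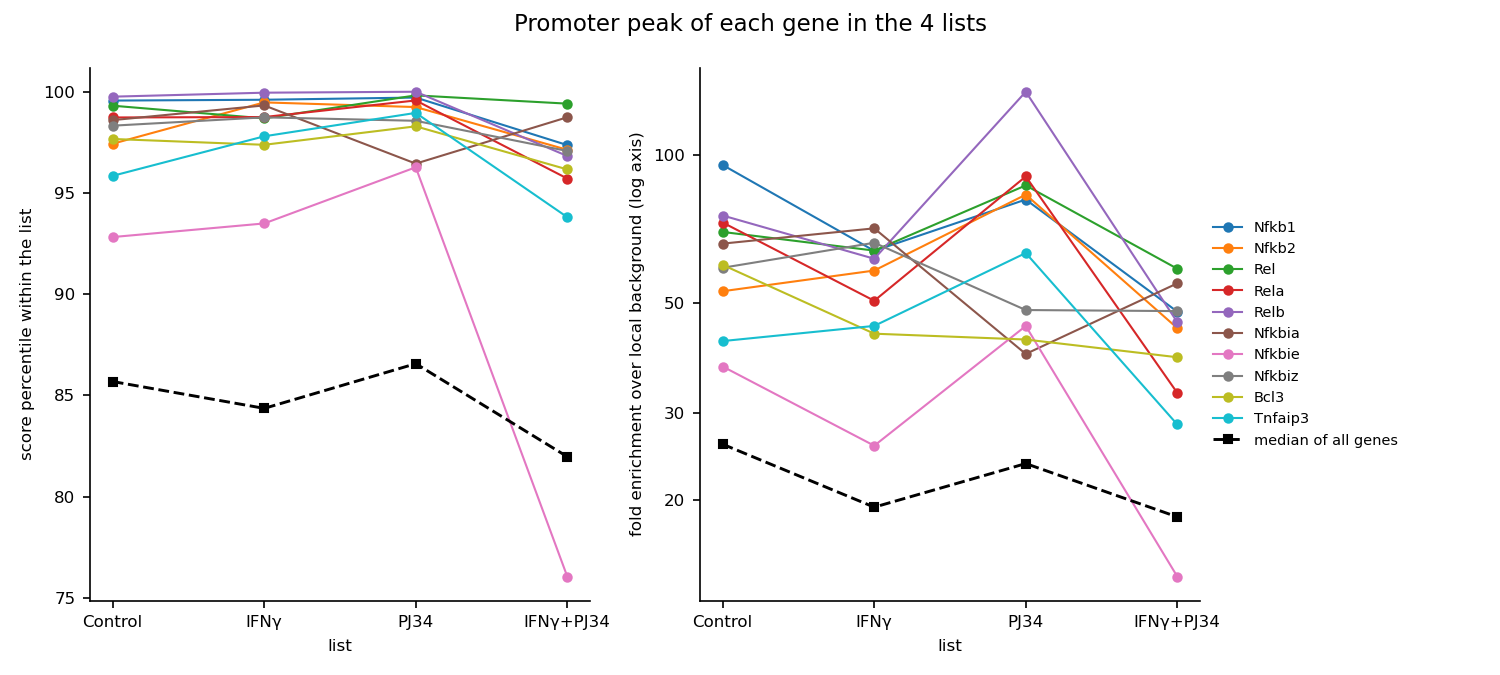
Score percentile (left, y axis 75 to 100) and fold enrichment over local background (right, log axis) of the promoter peak of each gene in the 4 lists on the x axis, 1 value per list. The dashed line is the median over all protein-coding genes with a promoter peak. The Nfkbie point at 76.1 in IFNγ+PJ34 and the Relb point at 134 in PJ34 stand furthest from the other genes.

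The effect of IFNγ alone on these genes was read from the IFNγ and Control lists. The covered length was lower in IFNγ for 9 of 10 genes, all but Nfkb1, and for 77.8% of all genes with a peak in either list. In all it was 136 kb against 181 kb, a ratio of 0.752 where the whole lists gave 0.808. Whole peaks were counted here, also where they reach past the 50 kb limit. Cut at that limit, a count added after seeing the data, the length was lower for 8 of 10 genes, all but Nfkb1 and Rel, and the ratio was 0.792. Of the 99 IFNγ peaks near the genes, 8 were absent from Control (8.08%, 3.55 to 15.3%), against 16.8% of all IFNγ peaks. Of these 8, Nfkb1 held 5 and Nfkb2, Nfkbiz and Tnfaip3 held 1 each, and without Nfkb1 the share was 3.45%. Of the 106 Control peaks, 32 were absent from IFNγ (30.2%, 21.7 to 39.9%), close to the 31.7% of all Control peaks, with 12 at Nfkbiz and 9 at Nfkbia.
Among the 58 regions in both lists, 5 ranked at least 10 percentile points higher in IFNγ (8.62%, all regions 14.9%) and 12 ranked that much lower (20.7%, all regions 28.7%). The median difference was 0.119 points near the 10 genes and -2.31 over all regions. With lists of equal size, a setting also added after seeing the data, 21.1% ranked higher in IFNγ, against 17.7% of all regions, so this share turned from below to above that of the whole list. Within 10 kb of a start site, 0 of 17 regions ranked lower (0 to 19.5%, all regions at any distance 28.7%). A share for all regions within 10 kb was not computed. Of all genes with a promoter peak in both lists, 14.6% had one that ranked at least 10 points lower in IFNγ.

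PJ34 alone gave the largest set. Near the 10 genes the PJ34 list held 143 peaks and 217 kb, against 106 peaks and 181 kb in Control, whereas over the whole lists the covered length was lower (ratio 0.910, against 1.20 near these genes). Covered length was higher in PJ34 for 8 of 10 genes, all but Rela and Relb, and for 33.9% of all genes with a peak in either list. Peak number was also higher for 8 of 10 genes, and for 34.4% of genes so counted. Of the 143 PJ34 peaks, 53 were absent from Control (37.1%, 29.1 to 45.5%), against 19.5% of all PJ34 peaks and 17.6% of those within 50 kb of a protein-coding start site. With a peak within 1 kb counted as a counterpart, the share was 21.7%, against 10.5% of all. The 53 peaks lay at Bcl3 (12), Nfkb1 (11), Tnfaip3 (9), Nfkbiz (7), Nfkbia (6), Rel (5), Relb (2) and Nfkb2 (1). Conversely, 5 of 106 Control peaks were absent from PJ34 (4.72%, 1.55 to 10.7%), against 25.1% of all Control peaks. Without Rela this share was 3.09%. Many of the PJ34 peaks lay close to very high peaks. Of 64 PJ34 peaks within 10 kb of another peak in the top 10% of the list, 32 were absent from Control (50.0%, 37.2 to 62.8%, all peaks so placed 23.3%). Of the other 79 peaks, 21 were (26.6%), where 18.6% of all other peaks were. This division was made after seeing the data.

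Of the 74 regions in both lists, 26 ranked at least 10 points higher in PJ34 than in Control (35.1%, all regions 18.5%) and 6 ranked lower (8.11%, all regions 20.1%). Within 10 kb of a start site the higher share was 20.0% of 20 regions, about that of all regions at any distance. The promoter peaks of the 10 genes ranked at 92.8 or higher in Control, where a rise of 10 points is not possible. The median difference was 5.34 points near the 10 genes and 0.312 points over all regions. For the distal regions of the 10 genes it was 10.4 points, and the median over all distal regions was not computed. As noted for the lists, PJ34 also had the highest inferred background, and its part in these shares was not tested.

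**Figure D3:**
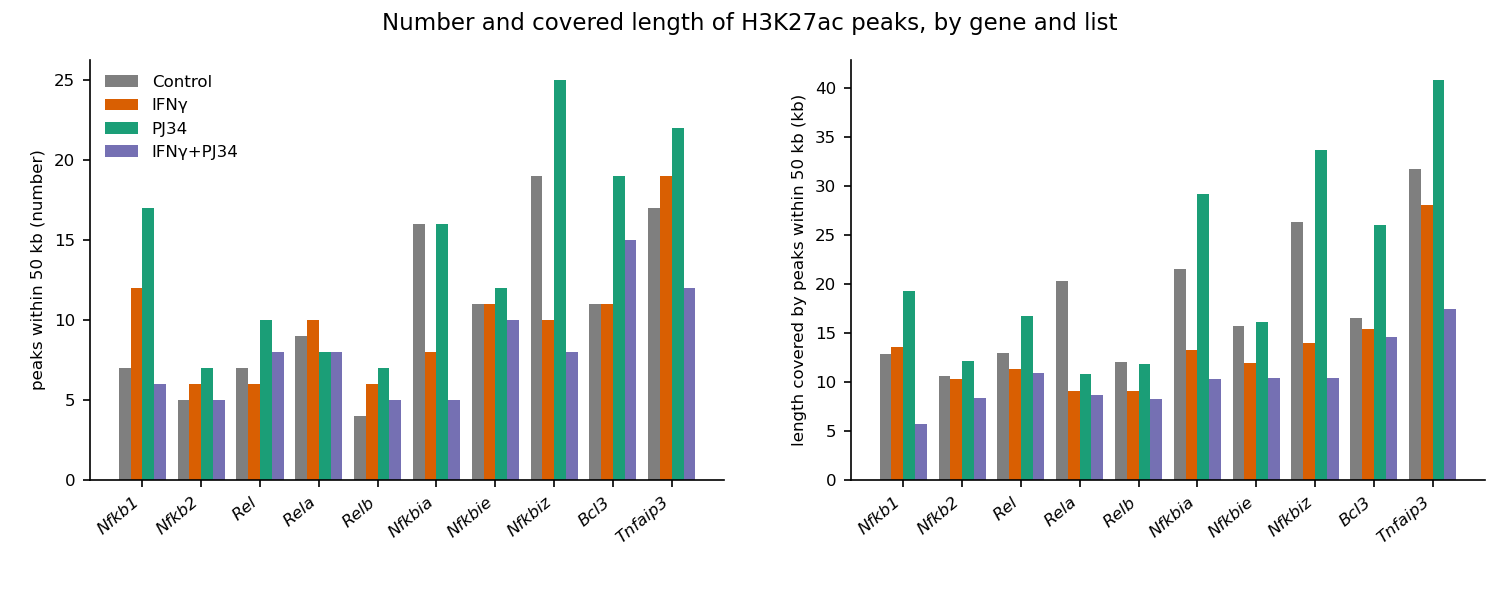
Number of H3K27ac peaks (left) and length they cover in kb (right) within 50 kb of the start sites of each gene, 1 bar per list. PJ34 bars are the highest or joint highest in peak number for every gene but Rela, and IFNγ+PJ34 bars are the lowest in covered length for all 10 genes.

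The addition of PJ34 before IFNγ, read against IFNγ alone, had the opposite appearance. Covered length was lower in IFNγ+PJ34 for 10 of 10 genes (52.0% of genes with a peak in either list), at 105 kb in all against 136 kb, while the whole list covered slightly more (ratio 1.04, against 0.773 near these genes). Peak number was lower for 8 of 10 genes, and for 30.7% of genes with a peak in either list, and Rel and Bcl3 were the exceptions. Of 99 IFNγ peaks, 26 were absent from IFNγ+PJ34 (26.3%, 17.9 to 36.1%), near the 24.1% of all IFNγ peaks, with 8 each at Nfkb1 and Tnfaip3. In contrast, 8 of 82 IFNγ+PJ34 peaks were absent from IFNγ (9.76%, 4.31 to 18.3%), against 27.2% of all, and 2.44% against 18.3% with peaks within 1 kb counted as shared. Beside the whole lists, the first share was similar and the second lower near the 10 genes.
Of 52 regions in both lists, 7 ranked at least 10 points higher in IFNγ+PJ34 (13.5%, all regions 26.1%) and 15 ranked lower (28.8%, all regions 21.4%), with a median difference of -2.69 points (all regions 0.265). Within 10 kb of a start site 0 of 15 ranked higher. The promoter peaks of the 10 genes ranked at 93.5 or higher in IFNγ, where a rise of 10 points is not possible. No share was computed for all regions within 10 kb.

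Peak number was higher in PJ34 than in Control and lower in IFNγ+PJ34 than in IFNγ for 6 of 10 genes (Nfkb1, Nfkb2, Relb, Nfkbie, Nfkbiz and Tnfaip3), where 10.2% of all 21951 genes had this order. Those 21951 genes include some without any peak, which cannot show it. Their median was 3 regions per gene, against 13 for the 10 genes, and a share among genes with as many regions was not computed. The promoter percentile had it for 8 of 10 genes, all but Rel and Nfkbia (40.5% of genes with a promoter peak in all 4 lists). The difference between these effects of PJ34, without and with IFNγ, was not tested.

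At the promoters, fold enrichment in IFNγ+PJ34 cells was lower than in IFNγ cells for 10 of 10 genes (53.6% of all genes with both peaks). The median ratio was 0.748, against 0.960 over all genes. The percentile was lower for 9 of 10 genes, all but Rel, and the share of all genes with any fall was not computed. The median difference in percentile was -2.29 points for the 10 genes and -1.24 over all genes with both peaks, so it was negative in both. By the criterion of 10 points and the highest promoter peak, however, only Nfkbie was lower among the 10. Of all genes with both peaks, 15.0% were lower and 9.85% higher. The peak at the upstream start sites of Nfkbiz, not counted here, ranked at 92.2 in IFNγ and 79.4 in IFNγ+PJ34. Read against PJ34 alone, the combination covered less at all 10 genes (64.9% of genes with a peak in either list), with a ratio of 0.485 near these genes and 0.921 over the lists. Only 2 of 82 combination peaks were absent from PJ34 (2.44%, 0.297 to 8.53%), against 25.7% of all, and 1.35% without Nfkbiz. In the other direction 79 of 143 PJ34 peaks were absent from the combination (55.2%, all PJ34 peaks 31.6%). Of 54 regions in both, 2 ranked at least 10 points higher in the combination (3.70%, all regions 22.1%) and 24 lower (44.4%, all regions 30.9%). Within 10 kb of a start site the lower share was 26.7% of 15 regions, under that of all regions at any distance, and the higher share 0%. The promoter peaks of the 10 genes ranked at 96.3 or higher in PJ34, where a rise of 10 points is not possible. The combination had the lowest inferred background, and its part in these differences was not tested.

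**Figure D4:**
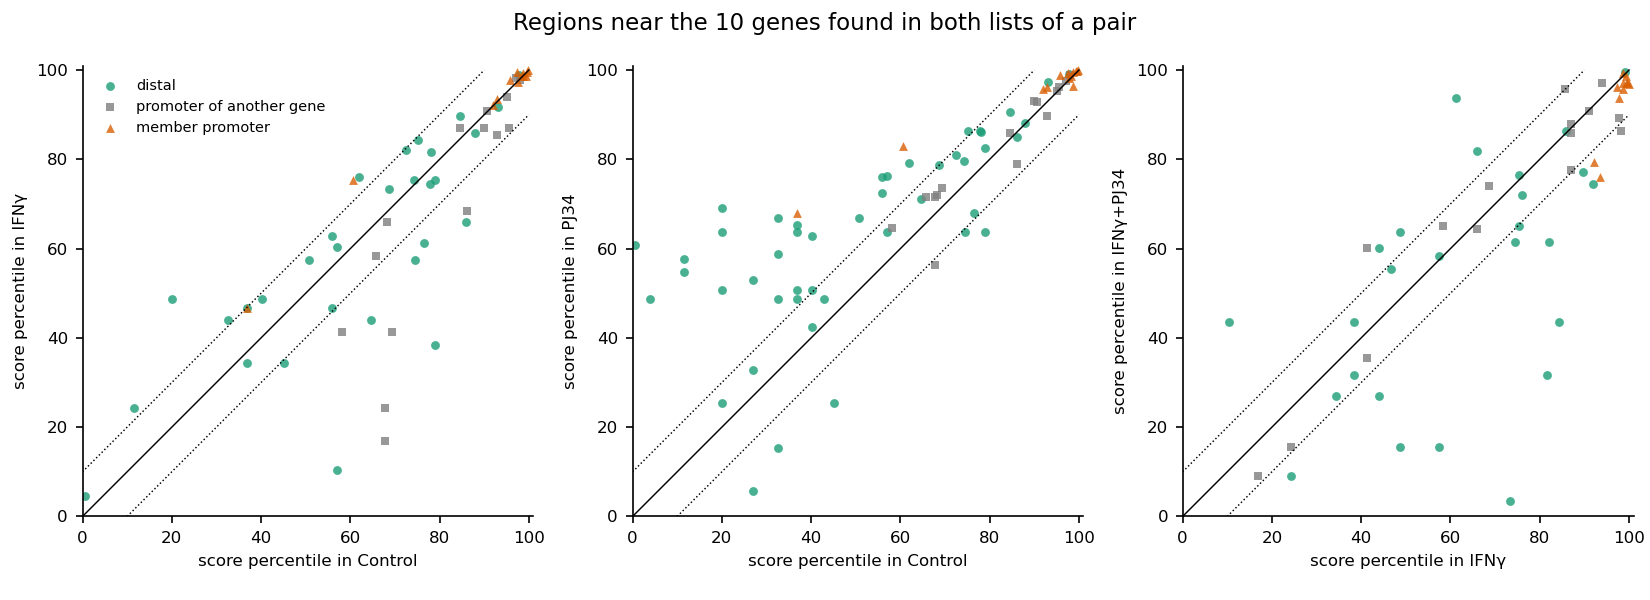
Score percentile of each region near the 10 genes in both lists of a pair (x axis the reference list, y axis the treated list, 0 to 100). Dotted lines mark 10 points above and below equality, and symbols separate distal regions, promoters of other genes and promoters of the 10 genes. In the middle panel 26 of 74 regions lie above the upper line, and in the right panel 15 of 52 lie below the lower one.

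Across all 4 lists, 50 of 134 regions had a peak in every list (37.3%, 29.1 to 46.1%), about the share of all regions, 38.9%. Regions with a peak in PJ34 alone numbered 43 (32.1%, 24.3 to 40.7%), against 8.93% of all regions. They lay at Bcl3 (11), Tnfaip3 (8), Nfkb1 (6), Nfkbia (6), Nfkbiz (5), Rel (5) and Relb (2), and none lay at Nfkb2, Rela or Nfkbie. These were short and low, with a median width of 391 bp, a median percentile of 15.3 (highest 42.5) and a median fold enrichment of 3.41. All 4932 PJ34-alone regions were much the same, with medians of 314 bp, 15.3 and 3.17. Of the 43, 36 lay within 20 kb of a start site of the 10 genes, a share not computed for other regions. Only 1 was at a promoter, that of Relb. Of the 43, 39 (90.7%, all PJ34-alone regions 72.8%) lay within 1 kb of another region, 27 (62.8%, all 59.1%) within 1 kb of a region of another list. When regions up to 1 kb apart were joined, those found in PJ34 alone came to 7 of 72 (9.72%, 4.00 to 19.01%), against 4.51% of all joined regions, and those in all 4 lists to 44 of 72 (61.1%, all 53.1%). The PJ34-alone set thus consisted mostly of short peaks within 1 kb of other regions, and its share depends on whether such peaks are counted separately.

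The next largest set was shared by Control and PJ34 and lacking in both IFNγ lists, 16 regions (11.9%, all regions 4.04%), of which Nfkbiz held 9 and Nfkbia 5. Another 8 regions were missing from IFNγ+PJ34 alone (5.97%, all regions 5.48%), and 6 were found in IFNγ and PJ34 alone (4.48%, all regions 2.7%), 4 of them at Nfkb1. Regions in Control alone numbered 5 (3.73%, all regions 11.8%) and in IFNγ+PJ34 alone 2 (1.49%, all regions 10.4%). None of the 134 regions was found in IFNγ alone (all regions 4.07%) or in the IFNγ and IFNγ+PJ34 lists alone (all regions 2.29%), and a count of 0 of 134 has an interval of 0 to 2.72%.

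**Figure D5:**
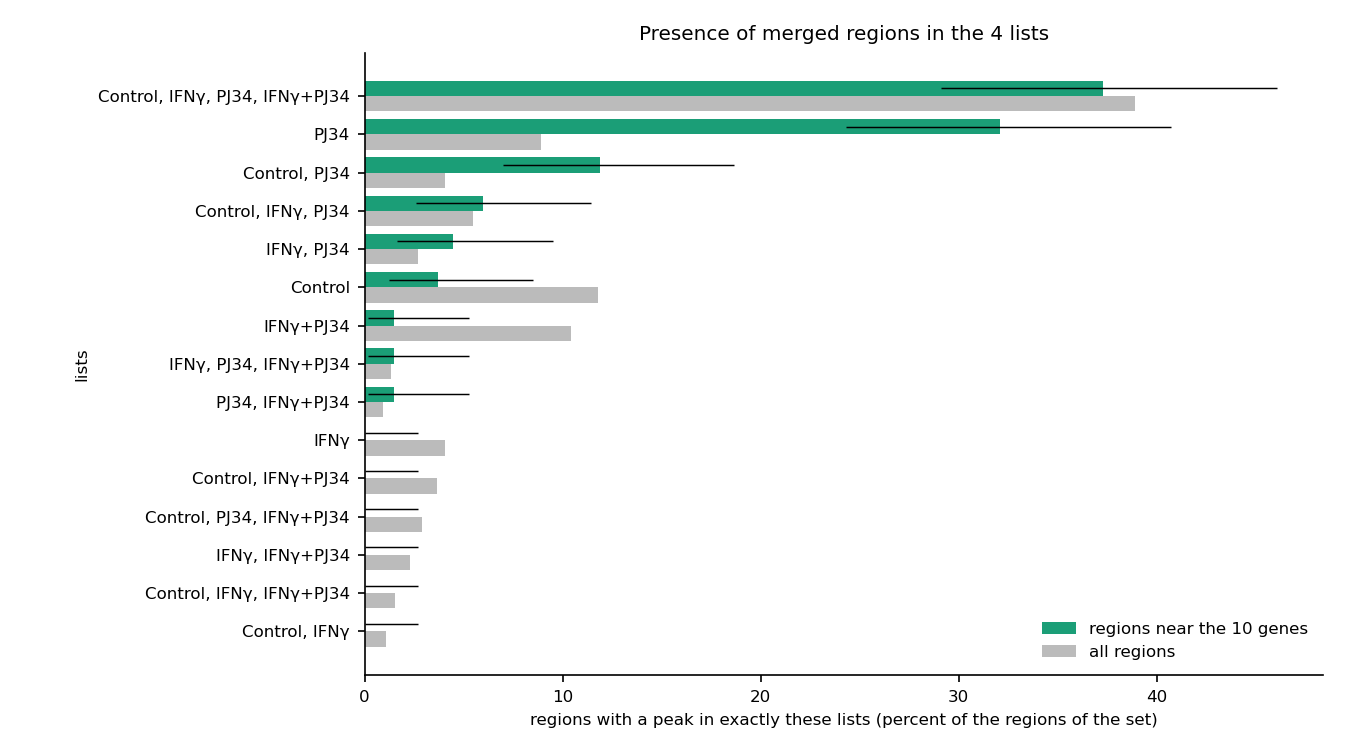
Percent of regions with a peak in exactly the lists named on the y axis, for the 134 regions near the 10 genes (green, with exact 95% intervals for counting error) and for all 55218 regions (gray). The bars for PJ34 alone stand at 32.1% and 8.93%.

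By position, 14 of the 134 regions were promoters of the 10 genes, 15 were promoters of other genes within the 50 kb windows and 105 were distal. Of the promoter regions 11 of 14 and 15 of 15 had a peak in all 4 lists, together 89.7% where 81.6% of all promoter regions had. Of the 105 distal regions 24 had (22.9%), where 26.1% of all distal regions had. Distal regions with a peak in PJ34 alone numbered 42, where 10.8% of all distal regions were of this kind. Peaks were found at 51 of the distal regions in Control, 38 after IFNγ, 98 after PJ34 and 30 after IFNγ+PJ34. The 105 regions include the 42 with a peak in PJ34 alone, which add to the PJ34 count by construction. The same counts over all distal regions were not computed.

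κB matches were common in the promoters of these genes and not at the peak summits. In the RefSeq promoter table (GRCm38, windows of 300 bases over a start site), which matched 7 of the 10 genes and not Nfkb1, Relb or Nfkbiz, 8 of 10 windows held a κB match, against 8.46% of 32851 windows. By gene this was 6 of 7, all but Rela, against 9.55% of 27025 genes. The 300 bases around the highest summit of each region held one in 9 of 134 regions (6.72%, 3.12 to 12.4%), near the 6.46% of all regions.
Over the whole length of the 134 regions there were 96 κB matches. A peak lay over 83 of them in Control, 73 after IFNγ, 92 after PJ34 and 68 after IFNγ+PJ34, and over 61 in all 4 lists. These matches were taken from the merged regions, to which PJ34 peaks gave the most length, and the shares for all κB matches were not computed. Per 10 kb covered, the matches came to 4.59 in Control, 5.37 after IFNγ, 4.24 after PJ34 and 6.47 after IFNγ+PJ34, so matches per length were fewest where most was covered.

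The wider pathway was described by a list of 55 other genes, made up of 11 IKK and upstream kinases, 12 adaptors and ubiquitin ligases, 10 other inhibitors and deubiquitinases, 18 NF-κB target genes and 4 co-activators. A promoter peak was found for 54 of them in Control, 54 after IFNγ, 55 after PJ34 and 51 after IFNγ+PJ34. Of 51 genes with a promoter peak in both IFNγ and IFNγ+PJ34, 10 ranked at least 10 points lower in the combination (15.0% of all genes with both peaks) and 0 higher (9.85%). Of these 10, 7 were target genes, of 14 with both peaks. Traf1, a signalling adaptor and target, ranked at 93.9 in Control, 95.9 after IFNγ, 96.0 after PJ34 and 45.6 after IFNγ+PJ34. Cxcl2, a neutrophil chemokine, ranked at 74.5, 91.5, 93.1 and 27.04. Il1b, the precursor of interleukin-1β, ranked at 82.4, 48.7, 82.8 and 15.6, and Tnf at 97.1, 97.4, 98.0 and 82.9. Nfkbib, which encodes a further IκB protein, ranked at 93.8, 95.4, 96.1 and 83.2. Cxcl1, Ccl5 and Ptgs2 had a promoter peak in the other 3 lists and none in IFNγ+PJ34, where 2.09% of genes with a promoter peak in IFNγ had none in the combination. Nos2, which encodes inducible nitric oxide synthase, ranked at 32.5 in Control, 69.3 after IFNγ, 66.1 after PJ34 and 57.4 after IFNγ+PJ34, so it was higher in each treatment than in Control. Il1a, which encodes interleukin-1α, ranked at 32.5, 66.4, 46.0 and 50.2.
Regions found in PJ34 alone made up 14.8% of the 548 regions near the 55 genes, against the 32.1% near the 10 genes, and 20.3% of those near the target genes. Near the 10 macrophage marker genes they made up 10.7% of 140 regions.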

How the data were processed

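H3K27ac ChIP-seq of BMDMs was described from 4 deposited peak lists, 1 per condition, each made from 2 ChIP and 2 input samples. Per the study's methods, the authors aligned reads to mm10 with Bowtie, filtered them for quality and unique mapping, called peaks with MACS against input in each replicate and kept peaks found in both. The deposited lists give for each peak a score, a whole number from the caller that rises linearly with −log10 p within a list and has many ties, and the fold enrichment ratio over local background as the authors' caller wrote it. They also hold −log10 p and −log10 q values from the same caller, as deposited. No read counts are in the lists, so the depth per sample is unknown and no limit of detection can be given.

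Peaks were assigned to a gene within 50 kb of a start site in GENCODE vM21 basic annotation (GRCm38, the same assembly as mm10; 21 of 21 chromosome ends were checked). A peak was called present in another list when it shared at least 1 bp. Score percentiles were computed within a list, regions took their highest peak, and a difference of 10 percentile points was called. Promoter means within 1 kb of any start site, and the promoter peak of a gene is the highest-scoring peak there. Regions named in the text are, by gene, the highest IFNγ peak absent from Control and the distal regions with the largest differences in either direction, IFNγ against Control and IFNγ+PJ34 against IFNγ. A few others were chosen after their values were seen: the Nfkb1 region beside the internal start site, the Nfkbie region beside the promoter, and the regions of the printed sequences. The genes, the pathway list and the marker lists were chosen with earlier results of these data known. Background was inferred from the 40 most frequent pairs of fold and p-value in each list, which accounted for 81.2 to 87.9% of the peaks holding them. The overlap, rank and interval functions were tested on simulated data. Alternatives tried were the overlap, the distance to the gene, the threshold, the ranking measure, lists of equal size and leaving out each gene. Python 3.11.15, numpy 2.4.6, pandas 2.3.3, scipy 1.17.1 and matplotlib 3.10.9 were used.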

Additional observations from a re-analysis of the deposited data

Results flagged for a closer look

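PJ34 went with opposite differences near the 10 genes according to whether IFNγ was present, and this difference between the effects was not tested, since each condition has 1 list. The number of peaks was higher by 37 in PJ34 than in Control, whereas the difference of IFNγ+PJ34 minus IFNγ was -17. As ratios these were 1.35 and 0.828, where the whole lists gave 1.01 and 1.06. The covered length was higher by 36.109 kb in PJ34 than in Control, whereas IFNγ+PJ34 minus IFNγ was -30.81 kb. The ratios of covered length were 1.20 and 0.773, where the whole lists gave 0.910 and 1.04. Peak number moved these opposite ways at 6 of the 10 genes (Nfkb1, Nfkb2, Relb, Nfkbie, Nfkbiz and Tnfaip3), and did not at Rel, Rela, Nfkbia and Bcl3. The share over all 21951 genes, those without any peak included, was 10.2%. Promoter percentile moved these opposite ways at 8 of the 10 genes, with Rel and Nfkbia as the exceptions. The share of genes with a promoter peak in all 4 lists was 40.5%. Some of these moves were small, such as 0.150 points for PJ34 minus Control at Nfkb1. Over all genes with both promoter peaks the median differences were 0.748 points for PJ34 minus Control and -1.24 points for IFNγ+PJ34 minus IFNγ. The inferred background was highest in the PJ34 list and lowest in the IFNγ+PJ34 list, 4.97 and 2.83 scaled reads, or 6.90 and 5.42 without the scaling. Its part in these differences was not tested.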

How the results depend on the processing

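Shares near the 10 genes are given with the same share over the whole lists in parentheses. Of 176 alternative values for 18 shares, 146 lay within the 95% interval of the reported share and 30 outside it, and the cause of those shifts was not tested beyond what each setting does by construction. Settings of equal list size, nearest start site and −log10 p rank, and all those for the PJ34-alone share, were added after seeing the data. With an overlap of 50% of the peak required, absent peaks came to 16.2% (22.0%) of IFNγ peaks from Control, 46.2% (45.3%) of Control peaks from IFNγ, 47.6% (25.1%) of PJ34 peaks from Control, 11.3% (36.5%) of Control peaks from PJ34, 40.4% (33.2%) of IFNγ peaks from IFNγ+PJ34 and 73.4% (42.6%) of PJ34 peaks from IFNγ+PJ34. With peaks within 1 kb counted as shared, they came to 16.0% (20.9%) of Control peaks from IFNγ, 21.7% (10.5%) of PJ34 peaks from Control, 2.44% (18.3%) of IFNγ+PJ34 peaks from IFNγ and 42.7% (21.4%) of PJ34 peaks from IFNγ+PJ34, and regions joined at 1 kb were in all 4 lists for 61.1% (53.1%) and in PJ34 alone for 9.72% (4.51%). Within 10 kb of a start site, the absent shares were 51.1% (19.5%) of PJ34 peaks from Control, 38.9% (24.1%) of IFNγ peaks from IFNγ+PJ34 and 3.85% (27.2%) of IFNγ+PJ34 peaks from IFNγ. There 0% (28.7%) of regions ranked lower in IFNγ than Control, 20.0% (18.5%) higher in PJ34 than Control, 0% (26.1%) higher in IFNγ+PJ34 than IFNγ, 0% (22.1%) higher in IFNγ+PJ34 than PJ34, and 26.7% (30.9%) lower in IFNγ+PJ34 than PJ34. With the higher-scoring 50% of each list, the absent shares were 15.1% (23.9%) of Control peaks from IFNγ, 22.9% (13.2%) of PJ34 peaks from Control, 0% (16.7%) of Control peaks and 0% (22.7%) of IFNγ+PJ34 peaks from PJ34, and 41.4% (25.8%) of PJ34 peaks from IFNγ+PJ34, and 52.3% (48.8%) of regions were in all 4 lists and 21.5% (5.66%) in PJ34 alone. With lists of equal size, 21.1% (17.7%) of regions ranked higher in IFNγ than Control. With only peaks whose nearest start site belongs to one of the 10 genes, 64.9% (31.6%) of PJ34 peaks were absent from IFNγ+PJ34 and 28.8% (38.9%) of regions were in all 4 lists. At 100 kb, by summit distance, at q under 0.01, and ranked by width, fold enrichment or −log10 p, all shares computed stayed within the interval. Leaving out 1 gene at a time gave a PJ34-alone share of 28.1% (without Bcl3) to 34.4% (without Rela), and 33.1 to 40.5% of PJ34 peaks absent from Control. No paired analysis was possible because a list joins both replicates and carries no replicate number, so leaving out a replicate was not possible either.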
